A study of Mus musculus with 13 samples.

Results

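The genes of DNA replication and S phase were followed in CD8+ T cells with and without the transcription factor Batf. The set was chosen by function, with earlier results of these data known. It holds 43 genes whose products license origins, form the replication fork, supply deoxynucleotides, package the new DNA or start S phase. Of these, 42 had a probe set assigned to a single gene, among 18194 genes measured in all, and Chaf1a was not analysed here. RNA was profiled on 13 oligonucleotide arrays. The groups were as follows: Batf-/- cells after 3 days of stimulation (4 arrays), wild-type cells after 3 days of stimulation (4 arrays), Batf-/- naive cells (3 arrays) and wild-type naive cells (2 arrays). All cells came from C57Bl/6 mice with the P14 T cell receptor transgene, which gives their CD8+ T cells a common receptor for a viral peptide, and were isolated by magnetic negative selection for CD8. Naive cells were taken on day 0. Day 3 cells had been cultured on plate-bound antibodies to CD3 and CD28 with 100 U/ml of recombinant human IL-2, so the receptor was engaged by antibody and not by its peptide. The labels do not say whether the arrays of a group came from separate animals or cultures, and p-values therefore measure the spread between arrays.

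A resting lymphocyte holds its DNA unreplicated and keeps most replication genes low. Before S phase the origin recognition complex, Cdc6 and Cdt1 load the Mcm2 to Mcm7 helicase onto origins. Cdc45, the GINS complex and Mcm10 then activate the helicase, primase and polymerase alpha start each strand, and polymerases delta and epsilon extend it on the Pcna clamp. Many of these genes are targets of E2F transcription factors, which the retinoblastoma protein holds in check until cyclins and their kinases release them. Batf is a member of the AP-1 family that binds DNA with Jun proteins and, in activated T cells, together with Irf4.

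Promoters of the members were searched for E2F motifs because E2F sites are what these genes are known to share. RefSeq promoter windows of assembly GRCm38.p6, which run from 250 bases before to 50 bases after the start of the gene, existed here for 35 of the 43 members. An E2F motif (TTTCGCGC, TTTGGCGC, TTTCCCGC or TTTGCCGC, on either strand) was found in 12 of these 35 genes (34.3%), and in 704 of all 27025 genes with a window (2.6%). The windows were not matched for base composition, and a match is a description of the sequence, not evidence of binding. The motif nearest to the start of each of the 12 genes is given with its flanks, ordered by the rise of the gene in wild-type cells. Capitals mark the motif, and the strand given is that of the genome on which the motif reads 5′ to 3′.
Cdc6, chr11:98908003-98908030, minus strand: ccccaggcgaTTTCCCGCtctccaccgg
Lig1, chr7:13278842-13278869, minus strand: gccacacagaTTTCGCGCgcactttggc
Orc1, chr4:108579417-108579444, minus strand: ggagaaaactTTTCGCGCcactaaccga
Rfc3, chr5:151651191-151651218, plus strand: acagtagagtTTTCCCGCgagcgcgaaa
Pold1, chr7:44548766-44548786, plus strand: gctTTTCCCGCcacaagatac
Pola1, chrX:93632276-93632303, plus strand: cgggagtgcaTTTGGCGCcctgtgatga
Mcm3, chr1:20820276-20820303, plus strand: cttcccaagtTTTCCCGCcacggaagtt
Mcm5, chr8:75109350-75109377, minus strand: ggctggacgtTTTGGCGCgaaagttctt
Mcm6, chr1:128359735-128359762, minus strand: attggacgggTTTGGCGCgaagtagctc
Pole2, chr12:69228163-69228190, plus strand: atgttcgcgaTTTGGCGCcaccgccgac
Mcm7, chr5:138171850-138171877, minus strand: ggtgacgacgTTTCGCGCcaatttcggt
Cdt1, chr8:122568037-122568064, plus strand: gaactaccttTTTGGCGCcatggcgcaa

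A total of 18 such motifs lay in the windows of these 12 genes, and 5 of the genes held more than 1. The motif of Mcm7 runs into a CCAAT box. The 250 bases before the start of Cdc6 and Orc1 are given on the strand of the gene because these 2 licensing genes had larger rises than most members in wild-type cells. Cdc6 encodes the loader that brings the helicase to the origin, and Orc1 is the largest subunit of the origin recognition complex. The capitals show the E2F motif, here read from its opposite strand, and it begins at position -138 in Cdc6 and at position -27 in Orc1, counted from the start of the gene.
Cdc6, chr11:98907901-98908150, plus strand: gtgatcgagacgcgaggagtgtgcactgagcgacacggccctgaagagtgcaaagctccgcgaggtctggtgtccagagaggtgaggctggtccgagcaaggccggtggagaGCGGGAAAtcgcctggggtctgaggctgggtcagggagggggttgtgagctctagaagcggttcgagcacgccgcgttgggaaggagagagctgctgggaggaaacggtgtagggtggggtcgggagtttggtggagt
Orc1, chr4:108579204-108579453, plus strand: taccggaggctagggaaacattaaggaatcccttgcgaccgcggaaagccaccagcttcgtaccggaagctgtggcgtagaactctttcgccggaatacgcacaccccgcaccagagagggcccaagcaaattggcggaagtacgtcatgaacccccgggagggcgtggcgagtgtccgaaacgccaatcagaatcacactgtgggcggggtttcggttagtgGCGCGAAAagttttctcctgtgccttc

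Other motifs were searched in the same windows on both strands. A CCAAT box (CCAAT) was present in 60% of the member genes and in 41.1% of all genes, and an E-box (CACGTG) in 17.1% of member genes and 8.09% of all genes. The cell cycle homology region (TTTGAA or TTCGAA) was present in 17.1% of member genes and 21.7% of all genes. The AP-1 motif TGANTCA, the core to which Batf and Jun bind, was in the windows of 0 of the 35 member genes and in 8.97% of all genes. The longer AP-1 and IRF composite was in those of 0 of the 35 member genes and in 0.315% of all genes. These letters were not in these windows, which says nothing of sites outside them.

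The labels were checked first. Batf was between 5.56 and 6.77 on the log2 intensity scale in the Batf-/- arrays and between 8.63 and 9.36 in the wild-type arrays, with no overlap. Mki67, a marker of cycling cells, lay between 12.10 and 12.21 in all 8 day 3 arrays and between 8.72 and 10.27 in the 5 naive arrays. T cell markers were high in every array, with a mean over 9 genes between 11.17 and 11.76, lowest in Batf-/- naive replicate 1. Batf-/- naive replicate 1 stood apart from the other naive arrays. The mean of 7 neutrophil progenitor genes was 9.90, 5.63 and 7.06 in the Batf-/- naive arrays, against 5.95 and 6.20 in those of wild-type cells, and 4.39 to 4.56 at day 3. Each of the 7 was highest in Batf-/- naive replicate 1 among the naive arrays, as were 5 of 5 mature neutrophil and 5 of 5 monocyte genes, 3 of 5 erythroid genes, 3 of 4 NK cell genes and 0 of 9 T cell genes. So were 2 of 6 activated T cell genes, 1 of 9 B cell, 1 of 5 plasma cell, 1 of 4 CD4 T cell and 0 of 5 naive T cell genes. The mean of the 6 activated T cell genes was 8.42, 8.20 and 8.23 in the Batf-/- naive arrays, against 7.82 and 7.94 in those of wild-type cells. The mean of the 4 NK cell genes was 8.48, 7.20 and 7.67 in the Batf-/- naive arrays, against 6.79 and 6.64 in those of wild-type cells. The genotype difference in naive cells and the interaction are therefore given with and without this array. Rises of single roles and genes in Batf-/- cells include it unless stated. With it the Batf-/- rise was larger than the wild-type rise for 9 of the 42 members, and without it for 33. The part of this array in the results was not tested beyond that.

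The replication genes were higher after 3 days of stimulation than in naive cells in both genotypes. At day 3, 42 of 42 measured members were higher than in naive cells of the same genotype in Batf-/- cells, where 23.8% of all genes were higher, and 42 of 42 in wild-type cells, where 22.4% were higher (limma, adjusted p under 0.05 over all genes). The rise was at least 2-fold for 26 members in Batf-/- cells (5.33% of all genes) and for 27 in wild-type cells (6% of all genes). Every day 3 array exceeded every naive array for 41 members in Batf-/- cells (25% of all genes) and for 42 in wild-type cells (30.3%). The members were chosen with earlier results of these data known, so these counts describe the set and are not an independent test of it. The median log2 rise over the members was 1.22 in Batf-/- cells and 1.44 in wild-type cells, beside 0.05 over all genes in each genotype. Without Batf-/- naive replicate 1 the Batf-/- median over the members was 1.44. Intensities come from pooled cells, so a larger share of cells in S phase and more RNA per cell cannot be told apart. Naive cells were taken on day 0, so the antibodies, IL-2 and time in culture cannot be told apart either. The means of the B cell, plasma cell, NK cell, neutrophil, monocyte and erythroid genes were lower at day 3 in both genotypes. Those of the CD4 T cell genes were higher. The part of such changes in the rises was not tested.

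**Figure D1:**
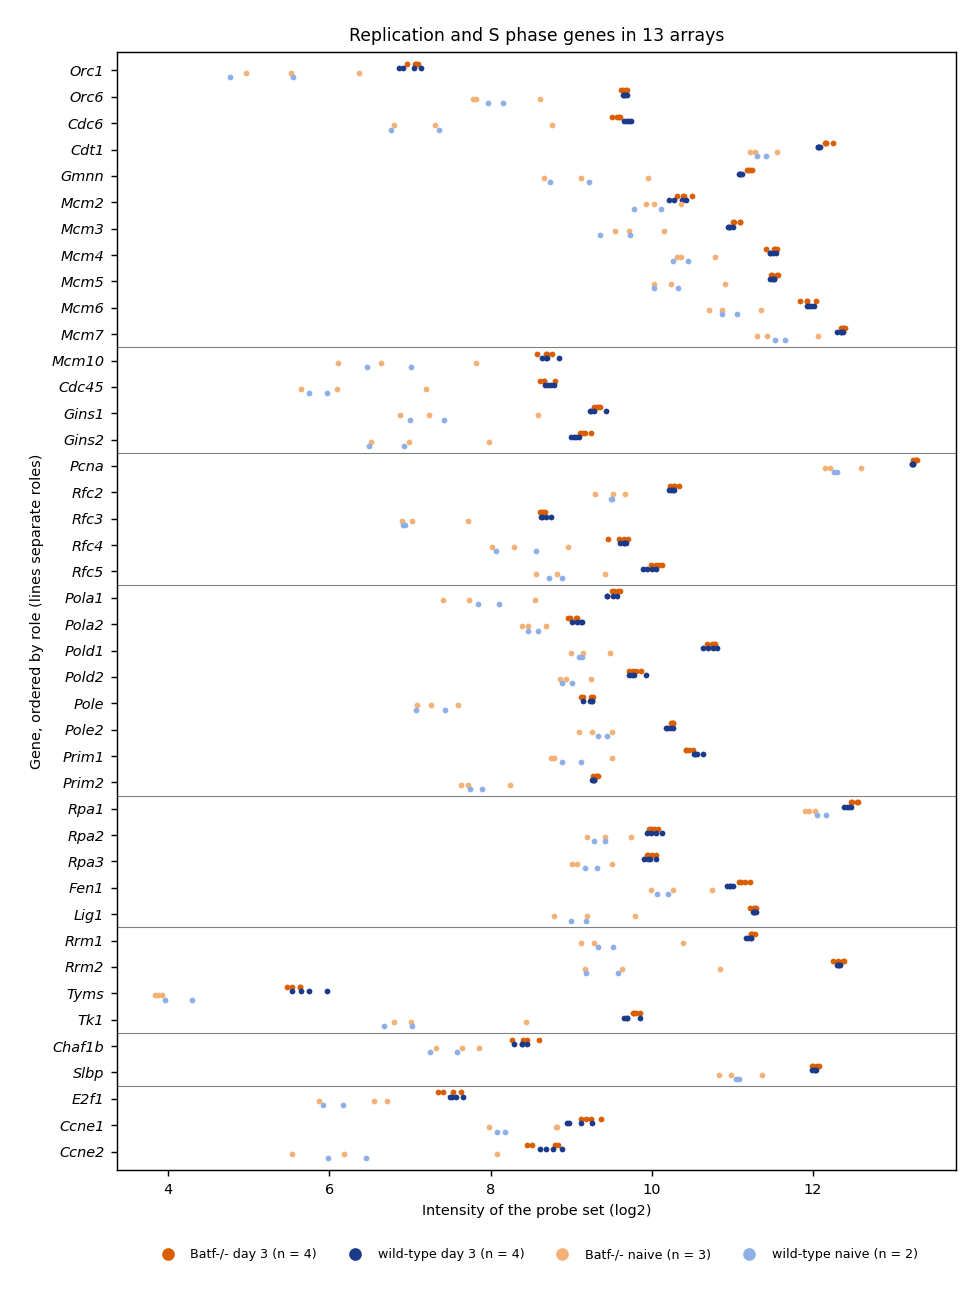
Log2 intensity (horizontal axis) of the 42 measured genes, one row per gene and one point per array, with roles separated by lines. Day 3 arrays of Batf-/- and wild-type cells overlap for most genes and lie to the right of the naive arrays, except Mcm2, where Batf-/- naive replicate 1 reaches the Batf-/- day 3 arrays.

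Among the 11 licensing genes the rise had a median of 1.13 in Batf-/- cells and 1.33 in wild-type cells. Cdc6 rose most of these in wild-type cells. It was at 9.59, 9.60, 9.57 and 9.50 in Batf-/- day 3 arrays, against 8.76, 6.80 and 7.32 in Batf-/- naive arrays. In wild-type cells it was at 9.69, 9.66, 9.71 and 9.74 at day 3, against 6.77 and 7.36 in naive arrays. The day 3 arrays lay close together in both genotypes, and the naive arrays spread over almost 2 log2 units, with Batf-/- naive replicate 1 the highest. The fitted rise was 1.94 ± 0.33 (SE, adjusted p = 0.00023) in Batf-/- cells and 2.64 ± 0.37 (adjusted p = 4.91e-05) in wild-type cells. Gmnn, the geminin inhibitor that binds Cdt1 and blocks a further round of licensing, rose by 1.96 in Batf-/- cells and 2.11 in wild-type cells. Orc1 rose by 1.43 and Orc6, a smaller subunit of the same complex, by 1.59 in Batf-/- cells, beside 1.83 for Orc1 and 1.60 for Orc6 in wild-type cells. A second probe set of Orc1, not dim, gave differences of 0.16 in Batf-/- cells and 0.42 in wild-type cells.

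Cdt1, the licensing factor that geminin binds, rose less. Its values were 12.25, 12.16, 12.14 and 12.16 in Batf-/- day 3 arrays, against 11.55, 11.22 and 11.28 in Batf-/- naive arrays. Wild-type cells had 12.06, 12.07, 12.08 and 12.06 at day 3, against 11.30 and 11.42 in naive arrays. All day 3 arrays were above all naive arrays, and the rise was 0.83 ± 0.08 in Batf-/- cells (adjusted p = 9e-07) and 0.71 ± 0.09 in wild-type cells (adjusted p = 1.28e-05).

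By their brightest probe sets, the 6 subunits of the helicase ring rose by unequal amounts. Mcm3 gained the most, with 11.02, 11.09, 11.10 and 11.00 in Batf-/- day 3 arrays, against 10.15, 9.54 and 9.72 in Batf-/- naive arrays. Its wild-type values were 10.95, 10.96, 10.96 and 11.01 at day 3, against 9.36 and 9.73 in naive arrays. The day 3 and naive arrays of Mcm3 did not overlap, and its rise was 1.25 ± 0.12 in Batf-/- cells and 1.43 ± 0.14 in wild-type cells. Mcm5 had 11.47, 11.55, 11.56 and 11.50 in Batf-/- day 3 arrays, against 10.91, 10.03 and 10.24 in Batf-/- naive arrays. In wild-type cells Mcm5 had 11.52, 11.46, 11.50 and 11.51 at day 3, against 10.02 and 10.32 in naive arrays. This was a rise of 1.13 ± 0.15 in Batf-/- cells and 1.33 ± 0.18 in wild-type cells. The order of the subunits depended on the probe set. Other probe sets of Mcm5 rose by 1.42 and 1.69 in Batf-/- cells and by 1.48 and 1.89 in wild-type cells. Those of Mcm3 rose by 0.59 to 1.45 in Batf-/- cells and by 0.59 to 1.80 in wild-type cells. Mcm4 was at 11.53, 11.55, 11.51 and 11.41 in Batf-/- day 3 arrays, against 10.79, 10.31 and 10.37 in Batf-/- naive arrays. Wild-type arrays gave Mcm4 11.54, 11.47, 11.51 and 11.46 at day 3, against 10.26 and 10.45 in naive cells, so that the rise was 1.01 ± 0.10 in Batf-/- cells and 1.14 ± 0.11 in wild-type cells.

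Mcm6 and Mcm7 rose by less, again by their brightest probe sets. Mcm6 was at 11.93, 12.03, 11.92 and 11.84 in Batf-/- day 3 arrays, against 11.35, 10.70 and 10.87 in Batf-/- naive arrays. The wild-type values of Mcm6 were 11.97, 12.01, 11.95 and 11.93 at day 3, against 10.87 and 11.06 in naive arrays. No arrays of the 2 states overlapped, and the rise was 0.96 ± 0.12 in Batf-/- cells and 1.0 ± 0.14 in wild-type cells. Mcm7 had 12.39, 12.37, 12.34 and 12.37 in Batf-/- day 3 arrays, against 12.06, 11.30 and 11.43 in Batf-/- naive arrays. Its wild-type values were 12.29, 12.35, 12.34 and 12.38 at day 3, against 11.52 and 11.66 in naive arrays. The rise of Mcm7 was 0.77 ± 0.13 in Batf-/- cells and 0.75 ± 0.15 in wild-type cells. Other probe sets of Mcm7 rose by 0.81 to 1.04 in Batf-/- cells and by 1.05 to 1.24 in wild-type cells.

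Mcm2 had the smallest rise in Batf-/- cells. It read 10.32, 10.50, 10.40 and 10.38 in Batf-/- day 3 arrays, against 10.37, 9.92 and 10.03 in Batf-/- naive arrays. Wild-type arrays read 10.42, 10.28, 10.37 and 10.21 at day 3, against 9.78 and 10.12 in naive cells. Batf-/- naive replicate 1 reached the day 3 range, and the rise was 0.29 ± 0.11 in Batf-/- cells (adjusted p = 0.0386) and 0.37 ± 0.12 in wild-type cells (adjusted p = 0.0239). Leaving out one of several arrays ended this call: its adjusted p was 0.171 in Batf-/- cells without Batf-/- naive replicate 2 and 0.303 in wild-type cells without wild-type naive replicate 1. Without Batf-/- naive replicate 1 the call held in both genotypes. The rise was then 0.42 in Batf-/- cells (adjusted p = 0.00244 by limma) and 0.37 in wild-type cells (adjusted p = 0.00575 by limma). The other probe set of Mcm2 gave 0.65 in Batf-/- cells and 0.54 in wild-type cells, with all arrays.

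The genes that activate the helicase rose more than most, with a median of 1.91 in Batf-/- cells and 2.21 in wild-type cells over 4 genes. Cdc45, which joins the Mcm ring and GINS in the moving helicase, was at 8.80, 8.61, 8.66 and 8.66 in Batf-/- day 3 arrays, against 7.20, 5.65 and 6.09 in Batf-/- naive arrays. In wild-type cells it was at 8.71, 8.75, 8.79 and 8.68 at day 3, against 5.75 and 5.98 in naive arrays. The 2 states were far apart in both genotypes, with a rise of 2.37 ± 0.25 (5.18-fold) in Batf-/- cells and 2.87 ± 0.28 (7.3-fold) in wild-type cells. A second, dimmer probe set of Cdc45 gave differences of only 0.18 in Batf-/- cells and 0.24 in wild-type cells. Mcm10, which is needed for origins to fire, was at 8.68, 8.76, 8.70 and 8.58 in Batf-/- day 3 arrays, against 7.82, 6.11 and 6.64 in Batf-/- naive arrays. Wild-type arrays had Mcm10 at 8.69, 8.64, 8.69 and 8.85 at day 3, against 6.46 and 7.01 in naive cells. That was a rise of 1.82 ± 0.29 in Batf-/- cells and 1.98 ± 0.32 in wild-type cells. The GINS subunits Gins1 and Gins2 rose by 1.76 and 2.01 in Batf-/- cells, beside 2.09 and 2.34 in wild-type cells.

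Pcna, the clamp that holds polymerases on DNA, gave bright values in every array. It was at 13.29, 13.27, 13.24 and 13.28 in Batf-/- day 3 arrays, against 12.60, 12.14 and 12.22 in Batf-/- naive arrays. Wild-type cells had 13.23, 13.24, 13.23 and 13.23 at day 3, against 12.30 and 12.26 in naive arrays. All day 3 arrays lay above all naive arrays, and the rise was 0.95 ± 0.09 in Batf-/- cells (1.93-fold, adjusted p = 1.07e-06) and 0.95 ± 0.10 in wild-type cells (1.94-fold, adjusted p = 3.47e-06).

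The replication factor C subunits load that clamp. Rfc3 rose most among them, with 8.65, 8.61, 8.68 and 8.62 in Batf-/- day 3 arrays, against 7.72, 6.90 and 7.03 in Batf-/- naive arrays. Its wild-type values were 8.69, 8.63, 8.75 and 8.63 at day 3, against 6.91 and 6.94 in naive arrays. The rise was 1.42 ± 0.14 in Batf-/- cells and 1.75 ± 0.16 in wild-type cells. Rfc2 rose least, with 10.34, 10.27, 10.27 and 10.23 in Batf-/- day 3 arrays, against 9.67, 9.30 and 9.52 in Batf-/- naive arrays. Wild-type cells had Rfc2 at 10.22, 10.23, 10.28 and 10.27 at day 3, against 9.49 and 9.50 in naive arrays. The states did not overlap for Rfc2 either, and it rose by 0.79 ± 0.08 in Batf-/- cells and 0.75 ± 0.09 in wild-type cells. Rfc4 and Rfc5 lay between, at 1.18 and 1.13 in Batf-/- cells and 1.34 and 1.16 in wild-type cells.

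The 8 genes of polymerases and primase had a median rise of 1.44 in Batf-/- cells and 1.48 in wild-type cells. Pole, the catalytic subunit of the leading strand polymerase epsilon, was at 9.27, 9.24, 9.15 and 9.12 in Batf-/- day 3 arrays, against 7.60, 7.09 and 7.27 in Batf-/- naive arrays. In wild-type arrays it was at 9.23, 9.26, 9.15 and 9.26 at day 3, against 7.08 and 7.44 in naive cells. Its naive arrays were close together and well below the day 3 arrays, and it rose by 1.88 ± 0.11 in Batf-/- cells (adjusted p = 1.68e-08) and 1.97 ± 0.12 in wild-type cells (adjusted p = 4.21e-08). Pola2, the accessory subunit of polymerase alpha, was at 9.07, 9.06, 8.99 and 8.96 in Batf-/- day 3 arrays, against 8.69, 8.38 and 8.46 in Batf-/- naive arrays. Wild-type cells had Pola2 at 9.01, 9.13, 9.08 and 9.13 at day 3, against 8.46 and 8.59 in naive arrays. This was the smallest rise of the 8, at 0.51 ± 0.07 in Batf-/- cells and 0.56 ± 0.08 in wild-type cells. The other 6 (Pola1, Pold1, Pold2, Pole2, Prim1 and Prim2) rose by 0.78 to 1.66 in Batf-/- cells and by 0.82 to 1.61 in wild-type cells.

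Genes that coat single strands and join Okazaki fragments were uneven, with a median of 0.79 in Batf-/- cells and 0.72 in wild-type cells over 5 genes. Lig1, the ligase that seals the fragments, was at 11.29, 11.27, 11.28 and 11.21 in Batf-/- day 3 arrays, against 9.79, 8.79 and 9.19 in Batf-/- naive arrays. Wild-type cells had Lig1 at 11.25, 11.30, 11.27 and 11.27 at day 3, against 9.0 and 9.18 in naive arrays. Day 3 arrays were nearly equal and all far above naive arrays, with a rise of 2.01 ± 0.16 (4.01-fold) in Batf-/- cells and 2.18 ± 0.18 (4.54-fold) in wild-type cells. Rpa1, the large subunit of the single-strand binding protein RPA, was at 12.56, 12.54, 12.46 and 12.49 in Batf-/- day 3 arrays, against 11.90, 12.03 and 11.95 in Batf-/- naive arrays. Its wild-type values were 12.38, 12.44, 12.47 and 12.42 at day 3, against 12.16 and 12.05 in naive arrays. Rpa1 rose by 0.55 ± 0.06 in Batf-/- cells (adjusted p = 2.58e-06) and 0.32 ± 0.06 in wild-type cells (adjusted p = 0.000913). Its partners Rpa2 and Rpa3 rose by 0.56 and 0.79 in Batf-/- cells and by 0.68 and 0.72 in wild-type cells. Fen1, the nuclease that trims the flaps between fragments, rose by 0.81 in Batf-/- cells and 0.83 in wild-type cells.

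The 4 genes of deoxynucleotide supply had a median rise of 2.04 in Batf-/- cells and 2.33 in wild-type cells. Rrm2, the S phase subunit of ribonucleotide reductase, rose most of all members in both genotypes. It was at 12.31, 12.38, 12.37 and 12.25 in Batf-/- day 3 arrays, against 10.85, 9.18 and 9.63 in Batf-/- naive arrays. Wild-type cells had 12.29, 12.31, 12.33 and 12.32 at day 3, against 9.19 and 9.58 in naive arrays. The states were separate by more than 1 log2 unit even for Batf-/- naive replicate 1, and the rise was 2.44 ± 0.27 (5.44-fold) in Batf-/- cells and 2.93 ± 0.31 (7.61-fold) in wild-type cells. Tk1, the thymidine kinase that salvages thymidine in S phase, rose by 2.39 in Batf-/- cells and 2.87 in wild-type cells, and Rrm1, the large reductase subunit, by 1.65 in Batf-/- cells and 1.78 in wild-type cells. Tyms, which makes thymidylate, was at 5.63, 5.64, 5.54 and 5.48 in Batf-/- day 3 arrays, against 3.84, 3.88 and 3.93 in Batf-/- naive arrays. Wild-type cells had Tyms at 5.54, 5.97, 5.65 and 5.75 at day 3, against 3.96 and 4.30 in naive arrays. Both naive means lay among the dimmest 40% of probe sets (below 4.35), and the rises of 1.69 ± 0.10 in Batf-/- cells and 1.60 ± 0.11 in wild-type cells are differences in measured intensity from values near the background.

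Both measured genes of chromatin assembly and histone mRNA rose by their brightest probe sets. Chaf1b, a subunit of the factor that deposits histones behind the fork, was at 8.61, 8.45, 8.40 and 8.26 in Batf-/- day 3 arrays, against 7.86, 7.33 and 7.65 in Batf-/- naive arrays. Its wild-type values were 8.29, 8.39, 8.39 and 8.46 at day 3, against 7.25 and 7.58 in naive arrays. The rise was 0.82 ± 0.12 in Batf-/- cells and 0.97 ± 0.14 in wild-type cells. Slbp, which binds the stem-loop of histone mRNAs, was at 11.98, 12.05, 12.08 and 12.00 in Batf-/- day 3 arrays, against 11.37, 10.84 and 10.98 in Batf-/- naive arrays. Wild-type cells had Slbp at 12.04, 11.99, 12.02 and 12.02 at day 3, against 11.04 and 11.08 in naive arrays. It rose by 0.97 ± 0.10 in Batf-/- cells and 0.95 ± 0.11 in wild-type cells, and the day 3 and naive arrays of both genes were separate. A second probe set of Chaf1b, not dim, gave differences of only 0.19 in Batf-/- cells and 0.07 in wild-type cells. Another of Slbp, also not dim, gave -0.11 in Batf-/- cells and 0.01 in wild-type cells.

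The 3 genes that control entry into S phase also rose. E2f1, an activating E2F factor, was at 7.63, 7.41, 7.54 and 7.35 in Batf-/- day 3 arrays, against 6.72, 5.88 and 6.55 in Batf-/- naive arrays. Wild-type cells had E2f1 at 7.52, 7.49, 7.57 and 7.66 at day 3, against 6.17 and 5.92 in naive arrays. It rose by 1.10 ± 0.16 in Batf-/- cells and 1.51 ± 0.18 in wild-type cells. The cyclin E gene Ccne2 was at 8.51, 8.83, 8.80 and 8.45 in Batf-/- day 3 arrays, against 8.08, 5.54 and 6.18 in Batf-/- naive arrays. In wild-type cells Ccne2 was at 8.78, 8.69, 8.61 and 8.89 at day 3, against 5.99 and 6.46 in naive arrays. Ccne2 had the widest spread between naive arrays of all members in Batf-/- cells (SD 1.32, n = 3), and its rise was 2.05 ± 0.42 in Batf-/- cells and 2.52 ± 0.47 in wild-type cells. Ccne1, the other cyclin E gene, was at 9.25, 9.37, 9.19 and 9.13 in Batf-/- day 3 arrays, against 8.83, 7.98 and 8.81 in Batf-/- naive arrays. Wild-type cells had Ccne1 at 8.97, 9.13, 8.95 and 9.26 at day 3, against 8.08 and 8.18 in naive arrays, and it rose by 0.70 ± 0.17 in Batf-/- cells and 0.95 ± 0.19 in wild-type cells.

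Rises were set beside the promoter sequences shown above. The 12 measured members with an E2F motif in the window had a median rise of 1.34 in Batf-/- cells and 1.47 in wild-type cells. The 22 measured members with a window but without the motif had a median of 1.03 in Batf-/- cells and 1.07 in wild-type cells. The ranges overlapped widely, from 0.71 to 2.64 with the motif and from 0.32 to 2.93 without it in wild-type cells. Rrm2, with the largest rise, had no such motif in its window, and Cdt1, with one of the smaller rises, had one.

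At day 3 the replication genes differed little between Batf-/- and wild-type cells. None of the 42 passed the test (0 of 42, beside 1.37% of all genes), and 0 had an unadjusted p under 0.05, beside 12.6% of all genes. The spread behind these p-values was pooled with the naive arrays. In Batf-/- naive arrays the median SD was 0.415 over the members and 0.127 over all genes. The counts of members therefore cannot be set directly against the shares of all genes. The smallest adjusted p belonged to Tyms (adjusted p = 0.555 by limma). With the brightest probe set of each gene, differences on the log2 scale ran from -0.16 for Tyms to 0.17 for Fen1, with a median of 0.02. Other probe sets that were not dim reached beyond this range. A second probe set of Rrm1 gave -0.24, beside 0.04 for its brightest. For Rrm2 the other probe sets gave -0.22 and 0.03, beside 0.01 for its brightest. The median size of the difference without its sign was 0.043 over the members and 0.074 over all genes. All 42 intervals (95%) lay within a 2-fold change in either direction, and 32 lay within 0.5 log2 units. The widest was that of Ccne2, which allowed Batf-/- cells a level lower by up to 0.93 log2 units (1.91-fold). A missed threshold does not show equal levels, and these intervals give the differences that the arrays could still hold.

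**Figure D2:**
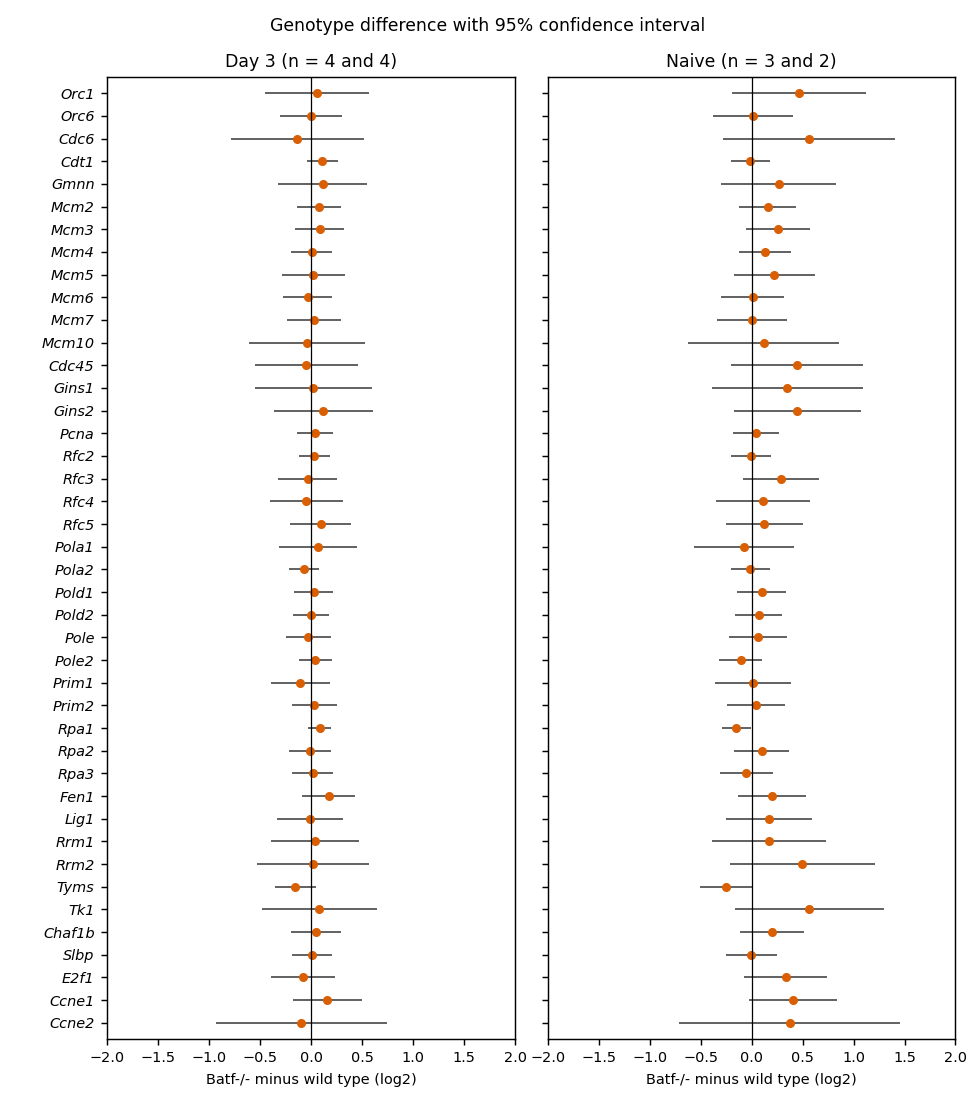
Difference between Batf-/- and wild-type cells (log2, horizontal axis) at day 3 (left) and in naive cells (right) for the 42 genes; points are fitted differences and lines 95% confidence intervals. Day 3 differences lie between -0.16 and 0.17, and the naive intervals are wider.

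The day 3 arrays of both genotypes were close to each other gene by gene. The median SD over the members was 0.048 in Batf-/- day 3 arrays and 0.044 in wild-type day 3 arrays, beside 0.092 over all genes in each. The spread in the fit is pooled with the wider naive arrays, so day 3 intervals and p-values are in general larger than the day 3 arrays alone would give. With the day 3 groups fitted alone 0 of 42 members passed as well. Without Batf-/- naive replicate 1 the day 3 difference of Fen1 had an SE of 0.06 (adjusted p = 0.204 by limma). That of Cdt1 had an SE of 0.05 (adjusted p = 0.287 by limma). The groups did not overlap for 5 members that were higher in Batf-/- cells (Cdt1, Gmnn, Gins2, Pcna and Fen1; 7.44% of all genes did so) and for 2 that were lower (Cdc6 and Prim1; 5.34% of all genes). For Fen1 the Batf-/- day 3 arrays were at 11.22, 11.15, 11.11 and 11.08, against 10.93, 10.97, 10.97 and 11.00 in wild-type day 3 arrays. Every Batf-/- array of Fen1 was higher, by 0.17 ± 0.12 on average (interval -0.09 to 0.43, adjusted p = 0.633). For Cdc6, whose arrays are given above, the difference was -0.14 ± 0.30 (interval -0.79 to 0.51, adjusted p = 0.917). After Tyms the smallest p were those of Rpa1, which differed by 0.08 ± 0.05 (interval -0.03 to 0.20, adjusted p = 0.583), and Cdt1, which differed by 0.11 ± 0.07 (interval -0.04 to 0.26, adjusted p = 0.592).

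In naive cells 0 of 42 members passed the test between genotypes, beside 1.08% of all genes. The difference was above 0 for 33 of the 42, with a median of 0.12, and ran up to 0.57 ± 0.34 for Tk1. This direction depended on single arrays. Batf-/- naive replicate 1 was the highest of the 5 naive arrays for 40 of 42 members, and for 26.6% of all genes. The median over the members was 9.45, 8.71 and 8.88 in the Batf-/- naive arrays, against 8.81 and 9.05 in the wild-type naive arrays, with 9.91 to 10.03 in the 8 day 3 arrays. Without that array the median difference was -0.09, with 11 members above 0 and 31 below, and again 0 passed. Without wild-type naive replicate 1 the median was 0.03, with 24 members above 0 and 18 below. The exceptions to the high values of Batf-/- naive replicate 1 were Rpa1 and Tyms, for which replicate 1 was the lowest naive array. The neutrophil progenitor, mature neutrophil and monocyte genes and most of the NK cell genes given above were also highest in this array, and their part in the result was not tested.

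**Figure D3:**
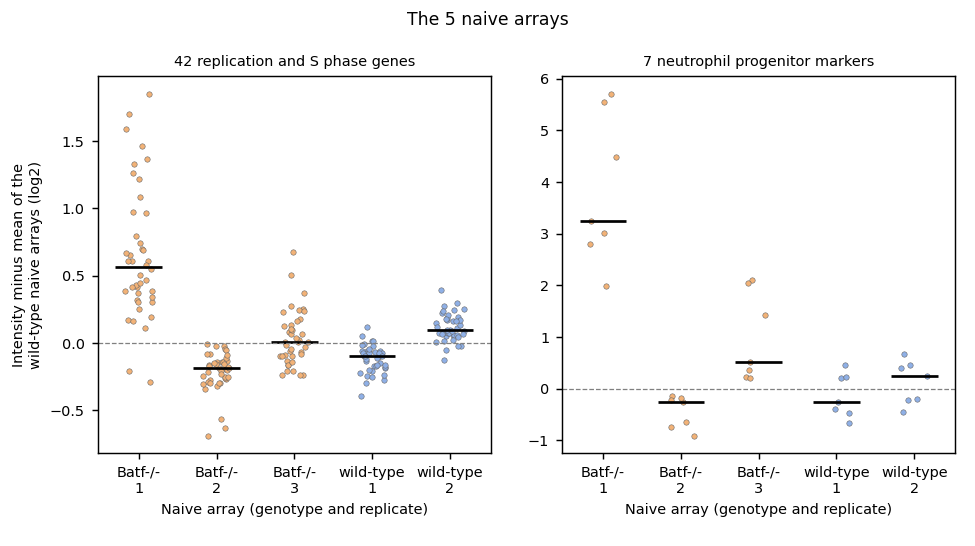
Log2 intensity minus the mean of the 2 wild-type naive arrays (vertical axis) in each naive array, for the 42 replication and S phase genes (left) and 7 neutrophil progenitor genes (right); points are genes and bars medians. Batf-/- naive replicate 1 is highest for 40 of the 42 genes on the left and for all 7 on the right.

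The spread between naive arrays was large for these genes. The median SD was 0.415 in Batf-/- naive arrays (0.138 without replicate 1) and 0.135 in wild-type naive arrays, beside 0.127 in Batf-/- and 0.085 in wild-type naive arrays over all genes. Intervals were within 2-fold for 34 of 42 members, and the widest bound was 1.45 log2 units, for Ccne2. Rpa1 alone had an unadjusted p under 0.05, beside 13.6% of all genes. Its naive values, given above, were lower in each Batf-/- array than in either wild-type array, by 0.15 on average (difference -0.15 ± 0.07, adjusted p = 0.359 by limma). The other probe set of Rpa1, not dim, went the other way in naive cells, with a difference of 0.08. Tyms was the other member whose groups did not overlap, also lower in Batf-/- cells, but both of its groups were near the background (2 of 42 members were lower without overlap, beside 12.7% of all genes, and 0 higher, beside 11.8%). E2f1 differed by 0.33 ± 0.19 and Ccne1 by 0.41 ± 0.20. Without Batf-/- naive replicate 2, the lowest naive array for 29 of 42 members, these 2 genes passed, with differences of 0.59 for E2f1 (adjusted p = 0.0176) and 0.69 for Ccne1 (adjusted p = 0.00687). In that setting 3.45% of all genes passed, so 2 of 42 members is near the share of all genes.

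The size of the rise was compared between genotypes with the interaction term. None of the 42 members passed (0 of 42, beside 0.649% of all genes). The Batf-/- rise was smaller than the wild-type rise for 33 members and larger for 9, with a median difference of -0.12. This order turned when Batf-/- naive replicate 1 was left out: the rise was then larger in Batf-/- cells for 33 members and smaller for 9, with a median difference of 0.10. Leaving out wild-type naive replicate 1 also removed the order, since the rise was then larger in Batf-/- cells for 22 members and smaller for 20, with a median difference of 0.01. Without Batf-/- naive replicate 1 the median rise in Batf-/- cells was 1.44, beside 1.44 in wild-type cells. Cdc6 had the largest difference with all arrays, -0.70. Its rise in Batf-/- cells was 2.51 without Batf-/- naive replicate 1, beside 2.64 in wild-type cells. Rpa1 had the only unadjusted p under 0.05, beside 11.9% of all genes, with a rise larger by 0.23 ± 0.09 in Batf-/- cells (adjusted p = 0.291). The other probe set of Rpa1 had the opposite order, with a rise of 0.50 in Batf-/- cells and 0.59 in wild-type cells. E2f1 passed only without Batf-/- naive replicate 2, with a difference of -0.66 (adjusted p = 0.0371), in a setting where 1.56% of all genes passed.

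**Figure D4:**
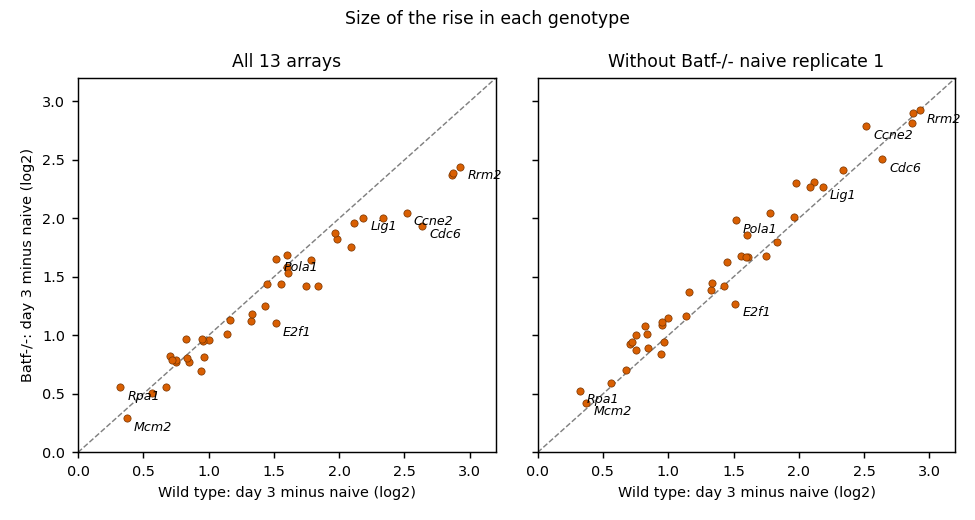
Log2 rise from naive to day 3 in Batf-/- cells (vertical axis) against that in wild-type cells (horizontal axis), one point per gene. Panels show the rises with all arrays (left) and without Batf-/- naive replicate 1 (right), and the dashed line marks equal rises. With all arrays 33 of 42 genes lie below the line, and without that array 9 do; without wild-type naive replicate 1, not plotted, 20 do.

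Across the 42 members the rises of the genotypes, which share no arrays, had a Pearson r of 0.973 with all arrays and of 0.981 without Batf-/- naive replicate 1. Genes are not independent replicates, and these are descriptions of the points plotted above. Members with small rises in wild-type cells, such as Mcm2, Rpa1 and Pola2, also had small rises in Batf-/- cells, and Rrm2, Tk1 and Cdc45 had the largest rises in both.

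A further 90 genes of replication, deoxynucleotide metabolism, chromatin replication, S phase entry and the replication checkpoint, of which 86 were measured, were taken from lists by function. The lists were chosen with earlier results of these data known. At day 3, 60 of the 86 rose and 9 fell in Batf-/- cells, and 55 rose and 12 fell in wild-type cells. Of all genes, 23.8% rose and 23.2% fell in Batf-/- cells, and 22.4% rose and 23% fell in wild-type cells. These lists were less uniform than the members. Of 35 other fork and origin genes, 28 rose and 5 fell in Batf-/- cells, and 25 rose and 6 fell in wild-type cells. Top2a, the topoisomerase that untangles replicated DNA, rose most among these 35, by 3.05 in Batf-/- cells and 3.29 in wild-type cells. Clspn, the checkpoint mediator claspin, rose by 2.45 in Batf-/- cells and 2.93 in wild-type cells. Top1, the topoisomerase that relieves supercoils in transcribed as well as replicated DNA, fell by 0.69 (difference -0.69 ± 0.06) in Batf-/- cells and by 0.74 (difference -0.74 ± 0.07) in wild-type cells. Orc2, a subunit of the origin recognition complex, fell by 0.38 in Batf-/- cells and by 0.42 in wild-type cells, in contrast to Orc1 and Orc6.

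Deoxynucleotide genes outside the set were split, with 3 of 9 rising and 3 falling in each genotype. Of all genes, 23.8% rose and 23.2% fell in Batf-/- cells, and 22.4% rose and 23% fell in wild-type cells. With 9 genes these counts are near those shares and are not a result about the list. The same shares stand beside the chromatin and checkpoint genes below. Dut, which removes dUTP, rose by 1.42 in Batf-/- cells and 1.40 in wild-type cells, and Samhd1, which degrades deoxynucleotides, rose by 1.03 in Batf-/- cells and 1.13 in wild-type cells. Tk2, the mitochondrial thymidine kinase, fell by 0.84 in Batf-/- cells and by 0.86 in wild-type cells, and Rrm2b, the p53-induced reductase subunit, fell by 0.27 in Batf-/- cells and by 0.24 in wild-type cells. The S phase genes Rrm2 and Tk1 and these counterparts outside S phase therefore moved in opposite directions in both genotypes. Of 10 chromatin genes, 7 rose and 0 fell in Batf-/- cells, and 6 rose and 1 (Asf1a) fell in wild-type cells. Uhrf1, which recruits the maintenance DNA methyltransferase, rose by 2.37 in Batf-/- cells and 2.77 in wild-type cells, and the remodeller Hells by 2.24 in Batf-/- cells and 2.77 in wild-type cells. Of 14 checkpoint genes, 10 rose and 1 fell in Batf-/- cells, and 9 rose and 2 fell in wild-type cells, with Brca1 rising most (2.71 in Batf-/- cells and 3.16 in wild-type cells).

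Among 18 other genes of S phase entry, 12 rose and 0 fell in each genotype. Of all genes, 23.8% rose in Batf-/- cells and 22.4% in wild-type cells. The largest rises of the 18 were those of the repressive E2F gene E2f7 (2.96 in Batf-/- cells and 3.22 in wild-type cells) and cyclin A2, Ccna2 (2.82 in Batf-/- cells and 3.12 in wild-type cells). Rb1, the retinoblastoma protein that restrains E2F factors, was the only 1 of the 86 that passed between genotypes at day 3. It was at 10.17, 10.20, 10.17 and 10.22 in Batf-/- day 3 arrays, against 10.53, 10.47, 10.43 and 10.38 in wild-type day 3 arrays. Every Batf-/- array was below every wild-type array, and Rb1 was lower by 1.2-fold (difference -0.26 ± 0.05, adjusted p = 0.023 by limma). The share of these genes that passed, 1.16%, was near the 1.37% of all genes, so the count is not a result about the lists. The call held in 13 of 22 alternatives, with adjusted p from 0.00238 to 0.42 over the 22. It was lost without Batf-/- day 3 replicate 1, 2, 3 or 4 or wild-type day 3 replicate 1, 2 or 3 (adjusted p from 0.051 to 0.0884), with the replicate block (adjusted p = 0.0911) and when the probe sets of Rb1 were averaged, which gave a difference of -0.13 (adjusted p = 0.42). In naive cells Rb1 was at 8.85, 8.86 and 8.88 in Batf-/- arrays, against 8.86 and 8.74 in wild-type arrays, and it rose by 1.33 in Batf-/- cells and 1.65 in wild-type cells. Among the 86, 0 passed between genotypes in naive cells and 0 in the interaction.

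Probe sets of the same gene did not always agree in size. The values above come from the brightest probe set of each gene, and 31 members had others. Of 38 other probe sets that were not dim, 35 were higher at day 3 in both genotypes, the exceptions being 1 each of Pole2, Prim2 and Slbp, and 11 differed by over 0.5 log2 units from the chosen one in at least 1 genotype. Mcm2, Mcm3, Mcm5, Mcm7, Gins2, Pold1, Fen1, Rrm2 and Ccne1 were measured by probe sets of a type (_s_at or _x_at) whose probes can match more than 1 transcript.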

How the data were processed

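The authors deposited linear probe set intensity values summarised by RMA (per the submitters' processing notes, with no version). Array medians were 31.5 to 32.5, so the arrays were not normalised again. Log2 was taken of the deposited intensities. Of 45101 probe sets, 34958 had 1 gene in the platform annotation, 932 several and 9211 none. Annotation IDs matched RefSeq GRCm38.p6 for 34754 probe sets. The brightest probe set stood for each of 18194 genes. Limma 3.58.1 in R 4.3.3 fitted 4 group means to 13 arrays (9 residual and 3.702 prior degrees of freedom). Tests were two-sided, adjusted by Benjamini-Hochberg over all genes and called at 0.05. The code was tested on simulated data. The members and lists were chosen with earlier results of these data known. Values of every array are given for the largest and smallest rise in each role, the 3 smallest p of each genotype contrast, Pcna and Mcm2 to Mcm7, and other pathway genes are examples that passed between genotypes, moved against their list or had the largest changes in it. The arrays of Fen1 and the promoters shown in full were chosen after their values were seen. Arrays of 1 number did not deviate together (r between -0.26 and 0.05), and numbers were not used to pair them in the fit reported. With so few arrays per group, this does not exclude that arrays of 1 number were prepared together. The number of arrays limits the precision. Promoters and motifs were read from RefSeq windows.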

Additional observations from a re-analysis of the deposited data

Results flagged for a closer look

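Cdt1 in Batf-/- day 3 replicate 1 (12.25 on the log2 scale, 12.2483 before rounding) lay apart from the other 3 arrays of its group, which were at 12.16, 12.14 and 12.16. The gap to the nearest was 0.844 of the range of the group, above Dixon's 95% limit for 4 arrays. It was the only 1 of 84 groups of 4 arrays tested that lay past the limit, where chance gives about 1 in 20.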

How the results depend on the processing

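The alternatives were another quantile normalisation, array median centring, leaving out dim probe sets, averaging the probe sets of a gene, eBayes with a trend or with robust estimates, array weights, the replicate block, the compared groups alone, a minimum of 2-fold, and leaving out each array. The members called at day 3 against naive were 41 or 42 in each genotype under all of these but the 2-fold minimum, which left 26 in Batf-/- cells and 27 in wild-type cells, with 37 other pathway genes in Batf-/- cells, 38 in wild-type cells and 0 between genotypes at day 3. Averaging probe sets lowered the median rise to 0.95 in Batf-/- cells and 1.13 in wild-type cells. Array weights brought the median to 0.0043 between genotypes in naive cells and to -0.0023 in the interaction. With an array left out the median rise was 1.04 to 1.44 in Batf-/- cells and 1.31 to 1.56 in wild-type cells. Between genotypes at day 3, 0 members passed under every alternative, and the median with an array left out was 0.01 to 0.03. The pathway genes that passed there, 1 in the fit reported, were 2 with median centring, quantile normalisation, the eBayes trend or no dim probe sets, 5 with the groups alone, 7 with array weights, 0 with the replicate block and 0 to 5 with an array left out (5 without Batf-/- naive replicate 1). Of all 18194 genes, 250 passed in the fit reported, 689 with the groups alone, 1306 with array weights and 563 without Batf-/- naive replicate 1. The larger pathway counts came where more of all genes passed, and are not a result about the lists. In naive cells the most listed genes passed without Batf-/- naive replicate 2, where 3.45% of all genes did. An array left out there gave 0 to 2 members, 0 to 3 pathway genes and a median of -0.09 to 0.28. In the interaction it gave 0 to 1 members, 0 to 2 pathway genes and a median of -0.23 to 0.10, which was above 0 without Batf-/- naive replicate 1 or wild-type naive replicate 1, and array weights gave 3 pathway genes. The cause of these changes was not tested. The replicate block called 41 members in Batf-/- cells and 42 in wild-type cells, and 0 in the other contrasts. The labels do not say whether the numbers pair the arrays. Low signal limits Tyms, whose naive means were near the background.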
